A study of Mus musculus with 6 samples.

Results

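The neuronal and synaptic transcripts described here are 42 genes that neurons use to build axons and to store, release and receive transmitter. They were chosen by name: every probe that was not a control spot and whose gene name equals a listed symbol was taken, which gave 67 probes. The arrays carried 30325 gene names, of which 19017 were tested because a probe of theirs was detected, that is well above background, in every pool of 1 group or both. Of the 42 genes, 32 were among those tested, through 45 probes, and the other 10 were too dim.

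RNA came from sciatic nerves of mice 1 month old: 3 pools of nerves from littermates that served as controls (Ctrl) and 3 pools from OGT_SCKO mice, each read on its own array. OGT is the enzyme that attaches the sugar O-GlcNAc to nuclear and cytoplasmic proteins, and the series title concerns its role in Schwann cells, the glia of peripheral nerve, for the factor JUN and for remyelination. Both groups were on the background that the labels spell C56 BL6. The number of animals in a pool, the Cre driver and the alleles of either group are not given in the sources used here. The p-values below set the difference between the groups against the spread among pools of a group, whatever the source of that spread.

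The sciatic nerve holds axons but not the cell bodies of their neurons, which lie in the spinal cord and the ganglia. RNA for neuronal proteins can therefore reach a nerve sample from axons, from glia that also make these proteins, or from other cells of the tissue. Several genes of the list are known outside neurons: Gap43, for example, is made by Schwann cells that do not form myelin and by those that have lost their axon. In whole nerve, fewer cells of a type and less RNA in each cell cannot be told apart.

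Levels are given as relative signal, which is the processed signal of a probe divided by the 75th percentile of its array. The level of 1 probe is not set against that of another, since probes differ in brightness. A gene is said to have risen or fallen where its limma p was under 0.05 after Benjamini-Hochberg adjustment across the 19017 genes. The 75th percentile ran from 2749 in Ctrl 2 to 6136 in OGT_SCKO 2, and 59.0% to 65.2% of probes were detected per array. Saturated spots were absent. Pools of a group correlated at 0.979 to 0.995 over genes, and pools of different groups at 0.948 to 0.976. Myelin genes were bright in every pool, with Prx, a protein of myelin-forming Schwann cells, at 54.7 to 63.4 in Ctrl and 34.7 to 46.0 in OGT_SCKO. Ogt itself read 1.38, 1.27 and 1.08 in Ctrl 1, 2 and 3 and 0.539, 0.495 and 0.497 in OGT_SCKO 1, 2 and 3. It fell 2.42-fold (log2 fold change -1.28 with SE 0.13, limma adjusted p = 0.00117). The sources used here do not say whether its probe lies in the deleted part.

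Of the 32 neuronal and synaptic genes tested, 7 rose and 5 fell in OGT_SCKO nerves, and 20 did not pass. Over all genes tested 23.3% passed, 11.2% higher and 12.2% lower. The rises were in Uchl1, Gap43, Tubb2b, Cplx2, Sv2b, Syn1 and Syn2, and the falls in Stmn2, Stmn3, Cplx1, Vamp1 and Syt1. The list thus moved in both directions, with a median log2 fold change of -0.12 against -0.07 over all genes. The 3 OGT_SCKO pools lay all above the Ctrl pools for 11 genes and all below for 9, where 20.4% and 25.4% of all genes did so.

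**Figure D1:**
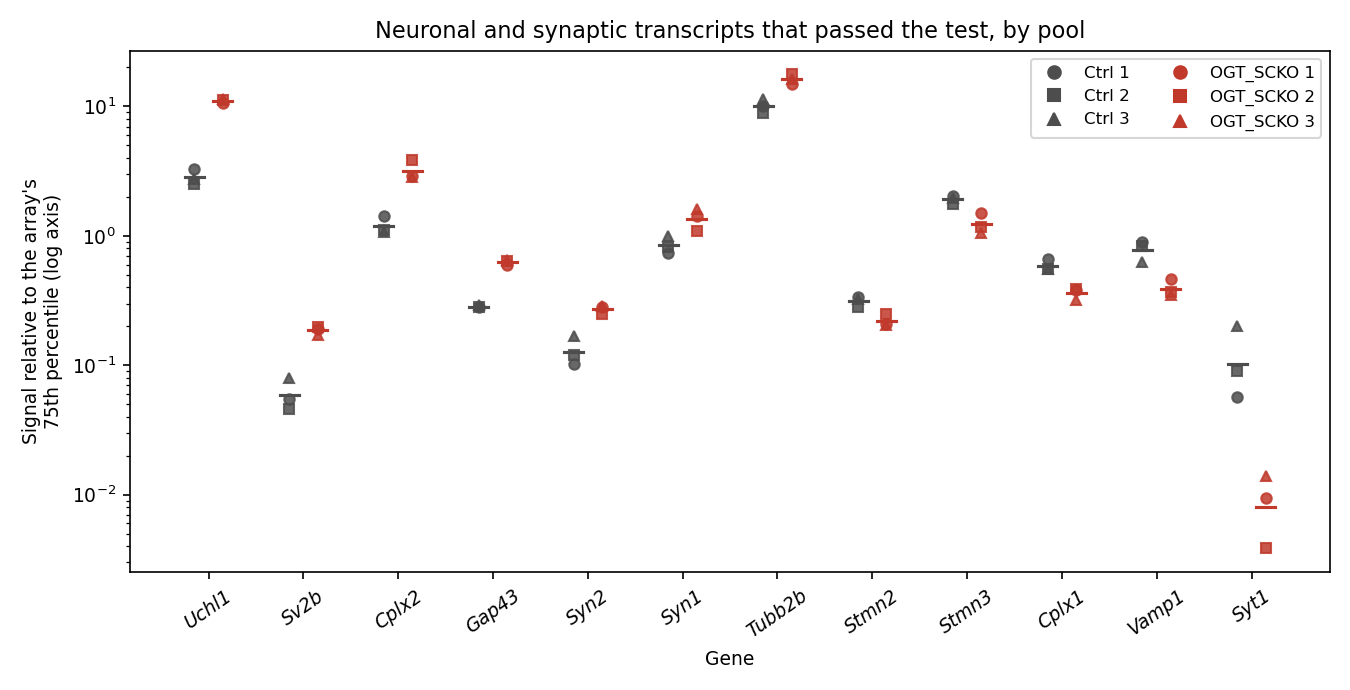
Relative signal of the 12 genes that passed the test, on a log axis, with 1 point for each pool (Ctrl grey, OGT_SCKO red, symbols by pool number) and a bar at the mean of the log values. In each gene the groups do not overlap; Uchl1 goes from 2.54 to 3.30 in Ctrl up to 10.6 to 11.4, and Syt1 drops to values that were not well above background.

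The first group holds 12 genes of axon growth and of the neuronal cytoskeleton, 11 of them tested, of which 3 rose, 2 fell and 6 did not pass. Uchl1, a ubiquitin hydrolase that is very abundant in neurons, had the largest rise of the whole list. Its probe (chr5:67073886-67074977, mm9) read 3.30, 2.54 and 2.77 in the Ctrl pools and 10.6, 11.2 and 11.4 in the OGT_SCKO pools. The 3 OGT_SCKO pools were nearly alike and far above every Ctrl pool. The difference was 3.89-fold (log2 fold change 1.96 with SE 0.13, limma adjusted p = 0.000288). It passed under each of the 20 alternative settings, with log2 fold changes from 1.86 to 2.13.

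Gap43, a membrane protein of growth cones, was also clearly separated. It read 0.281, 0.280 and 0.293 in Ctrl and 0.593, 0.645 and 0.650 in OGT_SCKO (chr16:42248714-42248773). The pools of a group lay close together. Gap43 rose 2.21-fold (log2 fold change 1.14 with SE 0.098, limma adjusted p = 0.000709). Basp1, which like Gap43 is a protein of the growth cone membrane, read 0.316 to 0.359 in Ctrl and 0.405 to 0.525 in OGT_SCKO, with no overlap, and missed the threshold (log2 fold change 0.41, limma adjusted p = 0.0720). With quantile normalisation it passed (0.43, adjusted p = 0.0471), as it did with median scaling, with the authors' deposited values and with slide as a random block.

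Tubb2b, a beta tubulin of developing neurons, was read by a pair of probes on the minus strand of chromosome 13. The brighter one (chr13:34219092-34219151) gave 10.1, 8.87 and 11.497 in Ctrl and 14.9, 17.7 and 16.3 in OGT_SCKO, a rise of 1.61-fold (log2 fold change 0.69 with SE 0.14, limma adjusted p = 0.0145). The dimmer one (chr13:34219061-34219120) gave 2.58, 2.70 and 3.28 against 6.94, 7.36 and 8.22, or 2.64-fold (log2 fold change 1.40, limma adjusted p = 0.00102 over all probes kept). Both probes put every OGT_SCKO pool above every Ctrl pool, and they differ in the size of the rise. They share 29 bases, so they are not independent readings. The shared stretch is shown because the 2 sizes come from probes that overlap in it, at chr13:34219092-34219120.
Tubb2b shared stretch: ggctaaaatcacataaacctttgtgtcct
Tubulin genes resemble each other, and how far a probe reads its relatives was not tested. Tubb3, the beta tubulin most used as a neuron marker, read 0.145 to 0.173 in Ctrl and 0.125 to 0.170 in OGT_SCKO. The groups overlapped, with a log2 fold change of -0.12 and a 95% interval from -0.48 to 0.23.

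The stathmins, small proteins that bind tubulin and let microtubules shrink, all had negative log2 fold changes. Stmn3 read 2.05, 1.78 and 1.96 in Ctrl and 1.499, 1.17 and 1.06 in OGT_SCKO (chr2:181041396-181041455) and fell 1.57-fold (log2 fold change -0.65 with SE 0.15, limma adjusted p = 0.0282). Stmn2, which axons need to regrow, read 0.338, 0.282 and 0.326 in Ctrl and 0.207, 0.250 and 0.206 in OGT_SCKO (chr3:8561545-8561604). It fell 1.43-fold (log2 fold change -0.51 with SE 0.13, limma adjusted p = 0.0340). In both genes each OGT_SCKO pool lay below each Ctrl pool, but these calls were weak: that of Stmn2 was lost under 11 of the 20 alternatives and that of Stmn3 under 9.

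Stmn1 and Stmn4 stood lower too, with no overlap between groups, and did not pass through the probe that represents them. Stmn1 read 61.4, 81.8 and 66.4 in Ctrl and 56.3, 29.5 and 45.8 in OGT_SCKO (log2 fold change -0.71 with SE 0.25, limma adjusted p = 0.0853), and its dimmer probe passed (-0.81, adjusted p = 0.00946 over all probes kept). In the authors' deposited table the change of Stmn1 was smaller (-0.40, limma adjusted p = 0.0471). Stmn4 had a log2 fold change of -0.94 (limma adjusted p = 0.0558), and its second probe, which shares 44 bases with the first, passed at -1.20 (adjusted p = 0.0141).

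The microtubule-associated proteins Mapt, which is tau, and Map2 bind along axons and dendrites, respectively. Mapt was read by 3 probes. The one that represents it went from 3.70, 4.18 and 4.44 in Ctrl to 6.87, 4.59 and 6.30 in OGT_SCKO, with OGT_SCKO 2 just above the highest Ctrl pool (log2 fold change 0.51 with SE 0.17, limma adjusted p = 0.0790). The other Mapt probes passed, at 0.58 and 0.80 (adjusted p = 0.0108 and 0.00556 over all probes kept). Without OGT_SCKO 2 the gene passed at 0.68 (limma adjusted p = 0.0140), but that pool was the lowest of its group, so leaving it out could only enlarge the rise. Map2 overlapped between groups, with a log2 fold change of 0.23 and a 95% interval from -0.07 to 0.54. Dcx, a microtubule protein of migrating young neurons, was well above background in 1 of 18 probe readings, on a Ctrl array, and was not tested.

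**Figure D2:**
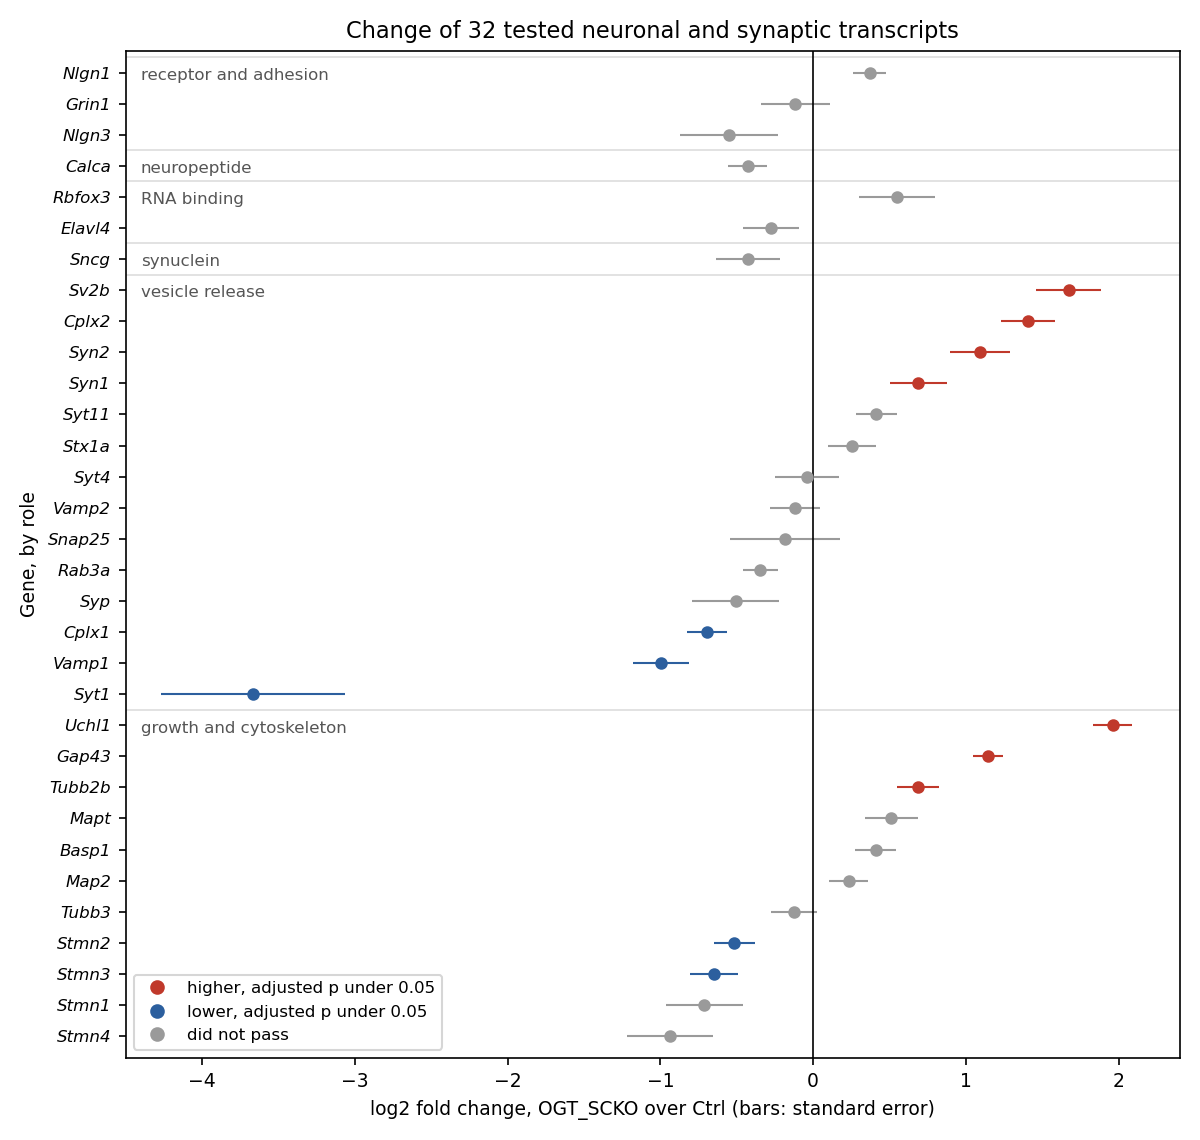
Log2 fold change of OGT_SCKO over Ctrl for the 32 tested genes, grouped by role, with bars for the standard error of the limma fit (n = 3 pools a group). Rises in red and falls in blue stand in both large groups. In the vesicle group, among genes detected in both groups of pools, they run from 1.67 in Sv2b to -0.997 in Vamp1. Syt1 is drawn at -3.66, but it was not above background in OGT_SCKO, so its point and bar are not a measured size.

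The second group holds 17 genes of the synaptic vesicle and of its release, 14 of them tested, of which 4 rose, 3 fell and 7 did not pass. The rises were in Sv2b, both synapsins and Cplx2, and the falls in Cplx1, Vamp1 and Syt1. Sv2b, a transporter-like glycoprotein of the vesicle membrane, read 0.0545, 0.0458 and 0.0804 in Ctrl and 0.191, 0.199 and 0.171 in OGT_SCKO (chr7:82260188-82260247). All OGT_SCKO pools were far above the highest Ctrl pool. Sv2b rose 3.19-fold (log2 fold change 1.67 with SE 0.21, limma adjusted p = 0.00315), passed under all 20 alternatives, and had its smallest log2 fold change, 1.25, with normexp background correction. Its relative Sv2a was below detection in every pool.

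The synapsins coat vesicles and hold them in a reserve pool. Syn2 read 0.102, 0.119 and 0.169 in Ctrl and 0.282, 0.249 and 0.286 in OGT_SCKO (chr6:115226390-115226449). It rose 2.13-fold (log2 fold change 1.09 with SE 0.20, limma adjusted p = 0.0105). Syn1 read 0.736, 0.822 and 0.991 in Ctrl and 1.43, 1.08 and 1.61 in OGT_SCKO (chrX:20437641-20437700), so that OGT_SCKO 2 was only slightly above Ctrl 3. It rose 1.61-fold (log2 fold change 0.69 with SE 0.19, limma adjusted p = 0.0413), close to the threshold, and the call was lost under 10 of the 20 alternatives. Both synapsins thus stood higher in every OGT_SCKO pool, Syn2 by the larger margin.

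The complexins clamp and speed the fusion of vesicles, and the 2 of them moved in opposite directions. Cplx1 read 0.660, 0.557 and 0.551 in Ctrl and 0.382, 0.390 and 0.320 in OGT_SCKO (chr5:108947895-108947954). It fell 1.62-fold (log2 fold change -0.70 with SE 0.13, limma adjusted p = 0.0128). Cplx2 read 1.44, 1.11 and 1.08 in Ctrl and 2.89, 3.87 and 2.84 in OGT_SCKO and rose 2.65-fold (log2 fold change 1.40 with SE 0.18, limma adjusted p = 0.00301). In neither gene did the groups overlap.

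The Cplx2 result depends on which probe is read. The arrays name 5 probes Cplx2, and 4 of them consist of A and G alone over all 60 bases. On the whole array 51 of 39429 probes (0.129%) have a run of at least 40 bases of A and G, or of C and T, and the longest such run in any other probe of the 42 genes is 24 bases, in the dimmer Tubb2b probe. The first 30 bases of the probe without such a run are shown because it is the one that carries the Cplx2 call.
Cplx2 at chr13:54485200-54485259: tccccactttgtatgatgcaaatgctaaga
This probe gave the 1.40 above (adjusted p = 0.00276 over all probes kept by limma). The runs on chromosome 13 gave 0.76 (adjusted p = 0.0529) and 0.42 (adjusted p = 0.0331), and they overlap each other by 28 bases. The runs that the files place on chromosomes 5 and 6, while RefSeq has Cplx2 on chromosome 13, gave 0.08 (adjusted p = 0.766) and 0.13 (adjusted p = 0.510). These 2 probes were not used for Cplx2, a choice made after seeing the data. The last of them is the brightest, and with such probes kept it would represent the gene, which then did not pass (log2 fold change 0.13, limma adjusted p = 0.509).

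Vamp1 and Vamp2, or synaptobrevins, sit on the vesicle side of the fusion complex. Vamp1 read 0.900, 0.834 and 0.628 in Ctrl and 0.465, 0.367 and 0.348 in OGT_SCKO (chr6:125171818-125171877). Every OGT_SCKO pool was below every Ctrl pool. Vamp1 fell 2.00-fold (log2 fold change -0.997 with SE 0.18, limma adjusted p = 0.0113). A dimmer second probe (chr6:125190387-125190446) did not pass and pointed the other way (0.25, adjusted p = 0.298 over all probes kept), and with the mean of both probes the gene had a log2 fold change of -0.37 (limma adjusted p = 0.145). Vamp2 overlapped between groups, at 1.59 to 2.30 in Ctrl and 1.67 to 1.99 in OGT_SCKO, with a 95% interval from -0.51 to 0.27.

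The synaptotagmins sense calcium or tune release. Syt1, the main calcium sensor of fast release, read 0.0572, 0.0903 and 0.203 in Ctrl (chr10:107935310-107935369). In OGT_SCKO it read 0.0095, 0.0039 and 0.0141, and no array of that group was well above background. Syt1 was therefore at least 4.26-fold lower, the mean of Ctrl set against the lowest signals that count as above background on the OGT_SCKO arrays. The gene was kept for testing through Ctrl alone, so its limma adjusted p of 0.00783 sets Ctrl against values not above background and gives no support of its own. Among the 31 genes detected in both groups, 7 rose and 4 fell. With normexp, which draws dim values together, its log2 fold change was -1.39 and did not pass (limma adjusted p = 0.149), so the bound holds for the processed signal only. Syt11 was higher in each OGT_SCKO pool, at 8.999, 8.96 and 10.2 against 6.20, 6.96 and 8.02, and missed the threshold (log2 fold change 0.41, limma adjusted p = 0.0651). Syt4 overlapped, with a log2 fold change of -0.04 and a 95% interval from -0.54 to 0.46. Syt2 and Syt7 were below detection in every pool.

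Of the remaining vesicle genes, Rab3a, a small GTPase of vesicles, read 4.48, 5.21 and 5.12 in Ctrl and 3.82, 3.65 and 4.18 in OGT_SCKO. Each OGT_SCKO pool was lower, and the gene missed the threshold (log2 fold change -0.35, limma adjusted p = 0.0727). Snap25 and Stx1a, the membrane partners of the synaptobrevins, had log2 fold changes of -0.18 (95% interval -1.04 to 0.67) and 0.25 (-0.12 to 0.63), with overlapping groups. Syp, or synaptophysin, an abundant vesicle protein, read 11.6, 14.7 and 12.5 in Ctrl and 12.6, 5.79 and 10.1 in OGT_SCKO (log2 fold change -0.51, 95% interval -1.19 to 0.17). Its 1 low value was that of OGT_SCKO 2.

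In 8 of the 20 genes that did not pass, Ctrl 2 was the highest Ctrl pool and OGT_SCKO 2 the lowest OGT_SCKO pool, namely Basp1, Grin1, Nlgn3, Rab3a, Snap25, Sncg, Stmn1 and Syp. That is 40%, near the 39.1% of all genes that did not pass. None of the 12 genes that passed had that order, which 24.3% of all genes that passed had. Snap25 was the widest case, at 5.88, 9.34 and 5.17 in Ctrl and 7.15, 3.49 and 7.73 in OGT_SCKO, and without either pool its log2 fold change turned positive (0.07 without Ctrl 2 and 0.18 without OGT_SCKO 2). These were also the arrays with the lowest and the highest 75th percentile, and the part that this difference has in the result was not tested.

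Of the synucleins, Sncg, which sensory and motor axons carry, read 96.5, 112 and 93.0 in Ctrl and 99.5, 56.9 and 72.9 in OGT_SCKO. The groups overlapped through OGT_SCKO 1 (log2 fold change -0.43, limma adjusted p = 0.184), and without that pool Sncg passed at -0.64 (limma adjusted p = 0.0347). That pool was the highest of its group, so leaving it out could only enlarge the fall. Over all genes 5601 passed without it, against 4436 with all pools. Sncb was well above background on 1 of 6 arrays, OGT_SCKO 1, and was not tested.

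Genes that mark neurons through RNA binding or peptides gave no call. Rbfox3, the NeuN antigen of neuronal nuclei, had a log2 fold change of 0.55 (95% interval -0.04 to 1.14, limma adjusted p = 0.152), with its highest value, 0.133, in OGT_SCKO 3. Elavl4, which stabilises neuronal messages, had -0.28 (-0.71 to 0.16, limma adjusted p = 0.295). Elavl2 and Elavl3 were below detection in every pool. Calca, which encodes the pain peptide CGRP, read 0.460, 0.376 and 0.367 in Ctrl and 0.288, 0.319 and 0.283 in OGT_SCKO, lower in each pool, and just missed the threshold (log2 fold change -0.43 with SE 0.13, limma adjusted p = 0.0543). Calcb and Tac1, which encode a related peptide and substance P, were below detection in every pool.

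The receptors and adhesion molecules of the postsynaptic side gave no call either. Grin1, the obligatory NMDA receptor subunit, overlapped between groups (log2 fold change -0.12, 95% interval -0.65 to 0.42), and Gria1, an AMPA receptor subunit, was below detection in every pool. Nlgn1, a neuroligin that binds presynaptic neurexins, read 0.0562, 0.0524 and 0.0543 in Ctrl and 0.0633, 0.0725 and 0.0752 in OGT_SCKO, higher in every pool (log2 fold change 0.37, limma adjusted p = 0.0550). It passed under 5 of the 20 alternatives, quantile normalisation among them (0.46, adjusted p = 0.0454).

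Nlgn3 gave opposite answers from its probes, all on the plus strand of chromosome X. The brightest one, which represents the gene, read 2.06, 3.40 and 2.16 in Ctrl and 2.36, 1.11 and 1.83 in OGT_SCKO (log2 fold change -0.55 with SE 0.32, limma adjusted p = 0.242). A second probe read 0.235, 0.267 and 0.295 against 0.422, 0.508 and 0.414, higher in every OGT_SCKO pool (0.75, adjusted p = 0.0108 over all probes kept), and the third had 0.57 (adjusted p = 0.0584). With the mean of its probes Nlgn3 had a log2 fold change of 0.25. The direction of Nlgn3 is thus not settled by these arrays.

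**Figure D3:**
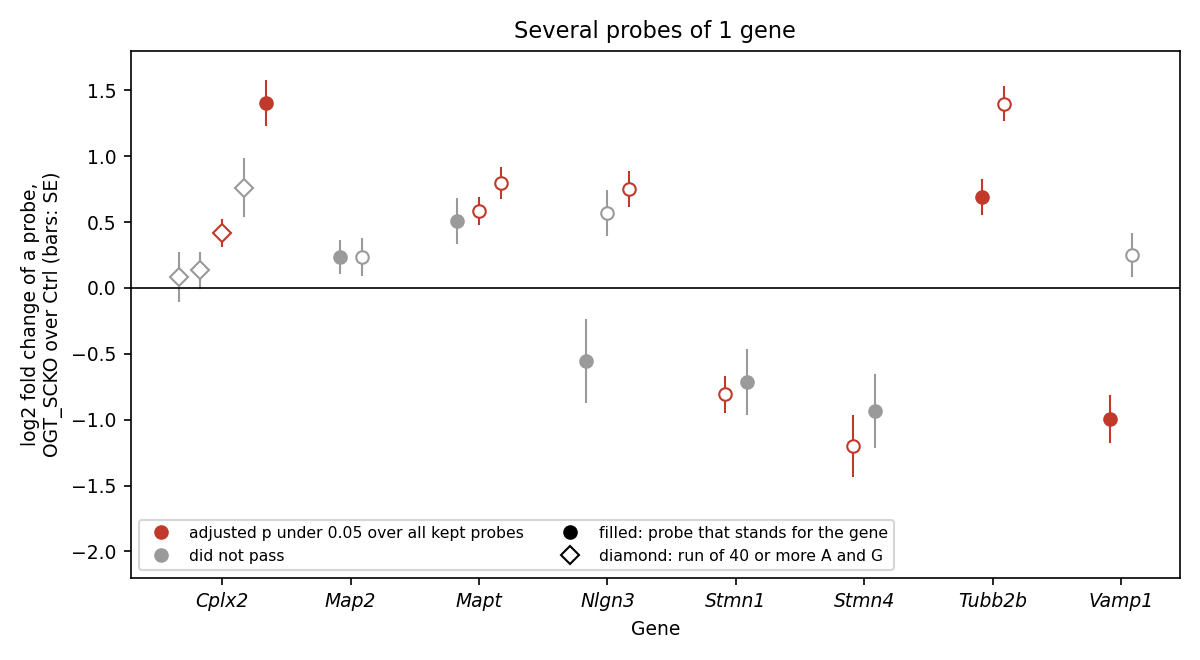
Log2 fold change of each kept probe for the 8 genes with several, with bars for the standard error (red: adjusted p under 0.05 over all kept probes, filled: the probe that represents the gene, diamonds: runs of 40 or more A and G). Probes of Stmn1, Stmn4, Mapt and Map2 point 1 way in each gene, those of Nlgn3 and Vamp1 point both ways, and the Cplx2 runs stay between 0.08 and 0.76 while its other probe reads 1.40.

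The slides hold the groups unevenly: slide 1 carried Ctrl 2 and all 3 OGT_SCKO pools, and slide 2 carried Ctrl 1 and Ctrl 3. With slide as a block, or on slide 1 alone, OGT_SCKO is therefore compared with Ctrl 2 only. All 12 genes that passed kept their direction in that comparison, which was fixed in advance because their groups do not overlap. The rises were 2.13 in Uchl1, 2.03 in Sv2b, 1.52 in Cplx2, 1.19 in Syn2, 1.17 in Gap43, 0.87 in Tubb2b and 0.72 in Syn1, as log2 fold changes. With slide as a block, limma adjusted p-values were 0.00499, 0.0130, 0.0329, 0.0748, 0.0169, 0.0494 and 0.182 in that order, so Syn1 and Syn2 did not pass. The falls were -0.36 in Stmn2, -0.53 in Stmn3, -0.62 in Cplx1, -1.10 in Vamp1 and -3.50 in Syt1, undetected in OGT_SCKO. None of these 5 passed with the block (limma adjusted p = 0.257, 0.206, 0.131, 0.0754 and 0.0811), and 6 of the 32 genes were lower at an unadjusted p under 0.05. On slide 1 alone Uchl1 and Sv2b passed (limma adjusted p = 0.0215 and 0.0266). Treating slide as a random effect kept every Ctrl pool in the comparison and gave 10 rises and 7 falls. The estimated correlation of pools on a slide was negative in that fit (-0.14), and over all genes 5241 passed against 4436. Its larger counts therefore do not show calls that outlast the removal of a slide effect.

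Markers of other cells of the nerve changed too. Of 5 markers of dividing cells tested, all rose, and their summed relative signal went from 1.01 to 1.13 in Ctrl to 2.35 to 2.68 in OGT_SCKO. Top2a among them was well above background on 1 of 3 Ctrl arrays and was kept for testing through OGT_SCKO alone. Of 6 markers of Schwann cells that do not form myelin, Gfap, Cadm1 and Ngfr rose and Ncam1 fell, with sums of 15.4 to 17.8 against 20.3 to 26.8. The Ncam1 call was lost under 10 of the 20 alternatives, the mean of its kept probes among them, and that of Ngfr under 7. Of 10 myelin markers, S100b and Prx fell, with sums of 596 to 783 against 382 to 611. The call of Prx was lost under 12 of the 20 alternatives, quantile normalisation and the authors' deposited values among them, and the median of the 10, -0.44, was -0.06 with quantile normalisation. All 4 skeletal muscle markers tested fell (sums of 1.41 to 1.71 against 0.295 to 0.466), while Ckm and Myh1 were not tested. None of 6 macrophage markers passed, with 2 at an unadjusted p under 0.05 (limma), and their sums overlapped, at 33.2 to 39.8 and 29.0 to 39.7. Csf1r, at 20.7 to 26.8 in Ctrl and 15.7 to 24.7 in OGT_SCKO, made up most of those sums. The part that these cells have in the results above was not tested.

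The starts of the genes were searched for motifs in the RefSeq promoter table (GRCm38.p6), which holds 29 of the 42 genes with 250 bases before and 50 after the transcript start. On both strands, the AP-1 motif TGANTCA was in the promoters of 8.97% of all 27025 genes and of 1 of the 29, Syt2. The cAMP response element TGACGTCA was in those of 2.03% of all genes and of 1 of the 29, Syn1. These searches found letters only, and nothing follows from them about binding. The 250 bases before the start are shown for Syn1, which carries the match (capitals, starting at position -159), for Uchl1, which had the largest rise, and for Vamp1, which fell and has its direction reversed in its second probe.
Syn1 at chrX:20920919-20921168, minus strand: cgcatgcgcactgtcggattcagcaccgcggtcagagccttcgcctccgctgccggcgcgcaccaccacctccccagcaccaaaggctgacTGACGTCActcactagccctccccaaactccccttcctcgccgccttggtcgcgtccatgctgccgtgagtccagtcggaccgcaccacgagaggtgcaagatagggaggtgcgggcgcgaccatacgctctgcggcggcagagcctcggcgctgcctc
Uchl1 at chr5:66675871-66676120, plus strand: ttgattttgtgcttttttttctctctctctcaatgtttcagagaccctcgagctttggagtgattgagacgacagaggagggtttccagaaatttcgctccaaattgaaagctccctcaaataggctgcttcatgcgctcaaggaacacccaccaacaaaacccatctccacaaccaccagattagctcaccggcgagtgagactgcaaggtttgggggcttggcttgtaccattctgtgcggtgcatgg
Vamp1 at chr6:125215331-125215580, plus strand: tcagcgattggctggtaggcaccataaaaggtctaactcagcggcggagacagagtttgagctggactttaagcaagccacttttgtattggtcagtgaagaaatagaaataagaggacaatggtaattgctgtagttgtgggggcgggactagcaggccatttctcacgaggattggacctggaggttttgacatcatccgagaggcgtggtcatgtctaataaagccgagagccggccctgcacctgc
Their GC contents were 68.0%, 48.8% and 50.4%, against a median of 52.4% over all promoters of the table.

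Beyond the 42 genes, 150 related neuronal and synaptic genes in 7 lists were examined, of which 111 were tested. Of these, 12 rose, 20 fell and 79 did not pass, where 11.2% and 12.2% of all genes rose and fell. In 3 of the 111 a whole group had no array well above background, and of the other 108, 9 rose and 20 fell. Where only probes well above background on all arrays were kept, 104 were tested, of which 8 rose and 19 fell. The 111 genes had a median log2 fold change of -0.26 against -0.07 over all genes. With quantile normalisation the medians were -0.18 and -0.01. All OGT_SCKO pools lay above the Ctrl pools for 16 of the 111 genes and below them for 43, where 20.4% and 25.4% of all genes did so.

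Neuronal filaments are the struts that set axon calibre. Of 5 tested, 1 fell and 4 did not pass. Prph, or peripherin, fell from 1.63, 1.73 and 1.57 in Ctrl to 1.33, 0.875 and 0.945 in OGT_SCKO (log2 fold change -0.67, limma adjusted p = 0.0351). The neurofilament subunits did not pass, with log2 fold changes of -0.57 in Nefh, -0.36 in Nefl and -0.21 in Nefm (limma adjusted p = 0.0746, 0.121 and 0.361), and the groups overlapped in Nefl and Nefm. Ina, or internexin, overlapped too (log2 fold change 0.04, limma adjusted p = 0.948). The list had a median of -0.36.

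Genes of axonal transport and of the axonal cytoskeleton gave 2 higher and 6 lower of 33, with a median of -0.17. Crmp1, which relays guidance signals to microtubules, read 0.0231, 0.0089 and 0.0202 in Ctrl, where no array was well above background. In OGT_SCKO it read 0.125, 0.172 and 0.149, at least 4.91-fold higher. It was kept for testing through OGT_SCKO alone, so its limma adjusted p of 0.00202 gives no support of its own. With normexp its log2 fold change was 1.69, under that bound. Tubb4a, a beta tubulin, fell 1.83-fold (log2 fold change -0.87 with SE 0.15, limma adjusted p = 0.00938), Klc2, a kinesin light chain, 1.46-fold (adjusted p = 0.0126) and Sptbn4, a spectrin of nodes of Ranvier, 1.69-fold (adjusted p = 0.0127). Tubb4a therefore went down where Tubb2b went up. Sptbn4 was dim in OGT_SCKO, at 0.038 to 0.050, and its call was lost with normexp.

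Other genes of vesicles and the active zone gave 6 higher and 4 lower of 37, with a median of -0.21. Amph, which helps to retrieve vesicle membrane, read 1.20, 1.1 and 1.30 in Ctrl and 1.77, 1.98 and 1.97 in OGT_SCKO and rose 1.59-fold (log2 fold change 0.67 with SE 0.11, limma adjusted p = 0.00868). Of the priming factors, Cadps fell 2.67-fold, with 2 of 3 OGT_SCKO arrays above background (limma adjusted p = 0.0105), and Cadps2 was at least 1.19-fold higher, with no Ctrl array above background. The calls of Cadps and Cadps2 were lost with normexp. Cadps2 and Syt12 were kept through OGT_SCKO alone, and without them 4 of the 35 genes rose and 4 fell. Napa, which helps to take apart the fusion complex, fell 1.48-fold (limma adjusted p = 0.0144).

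Postsynaptic genes gave 1 higher and 2 lower of 15. Gria4, an AMPA receptor subunit, fell 1.85-fold (log2 fold change -0.89 with SE 0.14, limma adjusted p = 0.00665) and Nlgn2 1.30-fold (adjusted p = 0.0484), while Lrrtm1, an adhesion protein of synapses, rose 2.00-fold (adjusted p = 0.0187). The Nlgn2 call was lost under 12 of the 20 alternatives, quantile normalisation and the authors' deposited values among them. Grin2a just missed the threshold (log2 fold change -0.83, limma adjusted p = 0.0514).

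Markers of sensory neurons gave 2 lower of 6 tested, out of 16 listed. The cold channel Trpm8 fell 1.69-fold (limma adjusted p = 0.0151), and Pvalb, the calcium buffer of neurons that sense muscle stretch and also of fast muscle fibres, fell 2.06-fold (adjusted p = 0.0298). The heat channel Trpv1 did not pass (log2 fold change 0.41, limma adjusted p = 0.118). Markers of motor and autonomic neurons gave 1 higher and 1 lower of 7. Slc18a3, which loads acetylcholine into vesicles, fell 1.68-fold (limma adjusted p = 0.0425), Ddc, an enzyme of amine synthesis, rose 1.91-fold (adjusted p = 0.0197), and Th had a log2 fold change of -0.60 (adjusted p = 0.133). The Ddc probe was well above background on 2 of 3 Ctrl arrays. It was therefore kept for testing through OGT_SCKO alone, and its p gives no support of its own. With normexp the calls of Trpm8, Slc18a3 and Ddc were lost.

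The largest share of falls was among genes of dense core vesicles and their peptides, with 4 lower and 2 higher of 8 and a median of -0.90. Scg5, a chaperone of prohormone processing, read 4.42, 3.33 and 3.31 in Ctrl and 1.15, 1.33 and 1.63 in OGT_SCKO. It fell 2.70-fold (log2 fold change -1.43 with SE 0.18, limma adjusted p = 0.00298), with every OGT_SCKO pool far below every Ctrl pool. Sst, or somatostatin, fell 2.38-fold (limma adjusted p = 0.00515), and the granins Chga and Chgb fell 1.97-fold and 2.78-fold (adjusted p = 0.0303 and 0.0138). Chgb was above background on 2 of 3 OGT_SCKO arrays, and Sst was dim there, at 0.031 to 0.044. Cpe, which trims prohormones, rose 1.41-fold (limma adjusted p = 0.0222) and Scg3, a granin that sorts cargo, 1.55-fold (adjusted p = 0.0432). With normexp the calls of Sst, Chgb, Chga and Scg3 were lost, and those of Scg5 and Cpe were kept. Chga then had a log2 fold change of -0.73 (limma adjusted p = 0.183) and Scg3 of 0.60 (0.0631). Of the genes named in these lists that were detected in both groups, Gria4 and Scg5 passed under all alternatives but slide 1 alone. The other calls of such genes, those of Chga and Scg3 included (limma adjusted p = 0.156 and 0.184), ended with slide as a block.

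**Figure D4:**
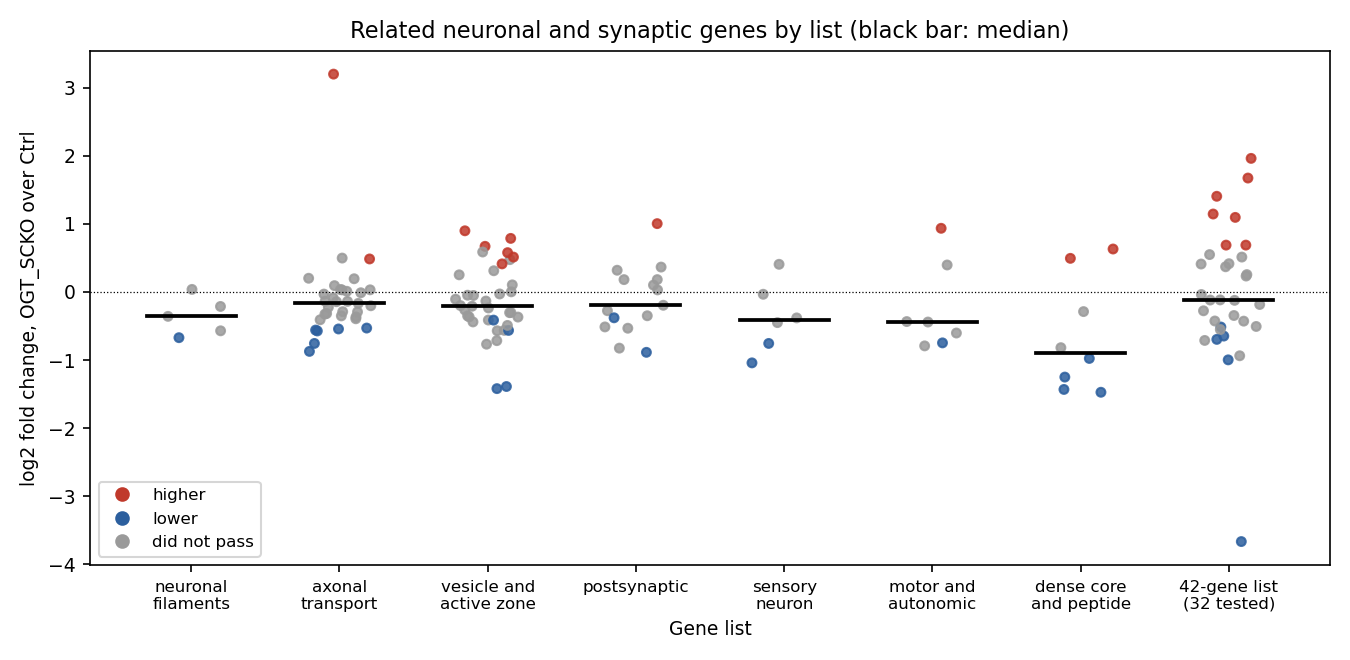
Log2 fold change of OGT_SCKO over Ctrl for each tested gene of the 7 related lists and of the 42-gene list (red higher, blue lower, grey not passed, black bar at the median). Each list holds genes on both sides of 0, and the lowest median is that of the dense core and peptide list, at -0.90.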

How the data were processed

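Each array carried RNA of 1 pool, labelled with a red dye per the labels. Agilent Feature Extraction 11.5.1.1 is the tool that the submitters' processing notes name, and the deposited intensity per spot is its background-corrected signal, not scaled between arrays. Other flags per the file headers mark spots as well above background, saturated or outliers. The authors' deposited log2 table has equal medians in all columns, was matched to the scanner values array by array (correlations 0.996 to 1.00), and served as an alternative; its exact processing is unstated in these sources. Counts of arrays, not reads, limit the precision.

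Log2 of the processed signal minus log2 of the array's 75th percentile was used. Outlier spots were left out, which cost 40 probes at least 1 array, spots of a probe were averaged, and 24287 of 39429 probes well above background on all arrays of a group were kept. A gene was represented by its kept probe of highest mean over 6 arrays. Probe names were updated through a RefSeq gene table (GRCm38.p6, 27655 probes matched), and 81 probes that the files place on another chromosome were left out, a choice made after seeing the data. Probe positions are given on mm9, as in the files, with no exon or UTR annotation. The test was limma 3.58.1 (lmFit, eBayes; R 4.3.3) on group alone, tested on simulated data first. The rule for names took all 42 genes, Ogt, and up to 4 genes of smallest p from each related and cell type list; Chga, Scg3, Ina, Syt12, Ckm and Myh1 lie outside it and were named after their values were seen. The 42 genes, the lists and their order by role were chosen with earlier results of these data known. Where no array of a group detected the probe, the fold is a bound: the bright group's mean against, per array of the dim group, the higher of the probe's value and the lowest value well above background. Labels share replicate numbers, but deviations of same-numbered pools correlated at -0.27, -0.53 and 0.06, so the numbers were not taken as pairs. Some items that these rules would name are not reported here.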

Additional observations from a re-analysis of the deposited data

How the results depend on the processing

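All 7 rises and 5 falls kept their direction in every alternative run on them. With 1 pool left out, with slide as a block and on slide 1 alone this was fixed in advance, since their groups do not overlap. The replicate block leaves log2 fold changes as they are, so it could not turn a direction either. Uchl1 and Sv2b passed in all 20, Gap43 in all but slide 1 alone (limma adjusted p = 0.0707), and Cplx2 in all but that one (0.0746) and the one that keeps probes placed on another chromosome (0.509). The number of genes of the list that rose was 11 with quantile normalisation and with the authors' deposited values, 2 on slide 1 alone, and 4 to 8 with 1 pool left out. The number that fell was 3 with normexp and with no filter on dim probes, 0 with slide as a block and 0 on slide 1 alone (6 and 5 at an unadjusted p under 0.05, limma), and 1 to 6 with 1 pool left out. Related genes higher numbered 5 with normexp, 6 with no filter, 2 with slide as a block, 1 on slide 1 alone and 2 to 12 with 1 pool left out, and related genes lower 10, 10, 3, 0 (16 at an unadjusted p under 0.05, limma) and 6 to 26. Over all genes 4436 passed, and 2718 with normexp, 2626 with no filter, 1227 with slide as a block, 406 on slide 1 alone and 1973 (without OGT_SCKO 3) to 5601 (without OGT_SCKO 1) with 1 pool left out. Without Ctrl 1, 2 or 3 the count was 2450, 2561 or 2103, and of the list's falls 4, 3 and 3 passed. Without OGT_SCKO 3 the falls were 1 and the rises 4. The share of calls that were higher was 47.9%, but 69.7% on slide 1 alone and 39.9% without OGT_SCKO 1. The replicate block, for numbers that do not pair the pools, gave 5 rises and 2 falls in the list, 2 and 6 among related genes and 1477 over all genes, and ended the calls of Tubb2b (limma adjusted p = 0.0768) and Cplx1 (0.0577), among others. Log2 fold changes that turned positive, none of which passed, were 0.0023 in Tubb3, 0.0013 in Vamp2, 0.020 in Elavl4 and 0.065 in Syt4 with normexp. Syt4 was 0.0015 with quantile normalisation, 8.05e-05 with median scaling, 0.0016 with the deposited values, 0.24 with slide as a block and on slide 1 alone, and -0.17 to 0.16 with 1 pool left out. Vamp2 was 0.16 with slide as a block and on slide 1 alone and -0.26 to 0.0092 with 1 pool left out. With 1 pool left out Snap25 ran from -0.39 to 0.18 and Grin1 from -0.34 to 0.11. Nlgn3 was 0.25 with the mean of its probes. The causes were not tested, beyond that leaving out arrays lowers the precision. With only 3 arrays a group, genes near background, such as Syt1, have bounds.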

Other observations

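Markers of other tissue that can travel with a dissected nerve moved as well. Of 3 fat cell markers tested, Fabp4 and Adipoq fell (limma adjusted p = 0.0246 and 0.0289) and Plin1 did not pass (0.0507), and their summed relative signal was 0.740 to 3.08 in Ctrl and 0.174 to 0.501 in OGT_SCKO. Adipoq was well above background on 1 of 3 OGT_SCKO arrays and was kept through Ctrl alone, so its p gives no support of its own. The calls of Fabp4 and Adipoq were lost with normexp and with slide as a block, among other settings. Among 4 perineurial markers Lypd2 fell 2.27-fold (limma adjusted p = 0.0151), and among 4 markers of cells along vessels Pdgfrb rose 1.61-fold (adjusted p = 0.00655). None of 5 fibroblast and 4 endothelial markers passed, with 0 and 1 at an unadjusted p under 0.05 (limma).

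Of 4 markers of oligodendrocytes, the myelin cells of the central nervous system, 1 was lower, 1 higher and 2 did not pass. Mobp, a myelin protein, read 0.791, 1.06 and 0.991 in Ctrl and 0.149, 0.117 and 0.147 in OGT_SCKO and fell 6.87-fold (log2 fold change -2.78 with SE 0.16, limma adjusted p = 0.000214). Opalin was at least 1.64-fold higher in OGT_SCKO, with no Ctrl array well above background, so that it was kept for testing through OGT_SCKO alone and its limma adjusted p of 0.000454 gives no support of its own. Mog and Olig1 had log2 fold changes of -0.27 and 0.34 (limma adjusted p = 0.615 and 0.297). No Ctrl array was well above background for Olig1 either. It too was kept for testing through OGT_SCKO alone, so its 0.34 is not a measured size.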
